A study of Mus musculus with 6 samples.

Results

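Elastic fibre and Bruch's membrane genes were followed in mouse retinal pigment epithelium (RPE), the pigmented cell layer between the photoreceptors and the choroid. The members were 10 named genes, looked up by symbol among 14008 named entries of the expression table, and all 10 were found: Eln, Fbln5, Efemp1, Lox, Loxl1, Emilin2, Ecm2, Mfap5, Timp3 and Htra1. The samples were RPE-enriched tissue of inbred C57BL/6J males at 8 to 10 weeks of age. They were taken at CT23 (3 libraries) and at CT1 (3 libraries), circadian times on either side of subjective dawn. RPE of 2 samples was pooled for each library, and a 3′ end kit was used, so that reads mark the 3′ ends of transcripts. The RPE was sonicated off an eyecup that still held choroid and sclera, so RNA of those layers could be carried along. Whether the libraries came from separate animals is not given, and p-values measure the spread between these libraries only.

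Elastic fibres consist of a core of cross-linked elastin laid on a scaffold of fibrillin microfibrils. Fibulins bring elastin and the cross-linking enzymes together, and lysyl oxidases then join lysines of neighbouring elastin chains. Bruch's membrane, the sheet on which the RPE rests, has an elastic layer between collagen layers, and the sclera and vessel walls hold elastic fibres too. TIMP3, fibulin-3 (the product of Efemp1) and HTRA1 are known from human macular disease.

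Values are CPM, the reads of a gene scaled by the total of its library, and the values of a group are listed by replicate number. Totals recovered from the CPM were 13017532 to 13651486 reads at CT23 and 12612330 to 13505064 reads at CT1, so 1 read was worth 0.0733 to 0.0793 CPM. The genes in the table took 12.7% to 32.3% of these totals. All 10 members averaged 1 CPM or more and were tested. Crystallins, the structural proteins of the lens, took 61.2%, 58.7% and 16.4% of the listed reads at CT23, against 1.84%, 10.2% and 12.8% at CT1. In bulk RNA, fewer cells of a type and less RNA per cell cannot be told apart.

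The comparison asked how these genes differ between CT23 and CT1. Of the 10 members, 9 had a lower mean at CT23 and 1, Htra1, a higher mean, while 47.8% of all 11342 genes tested were lower at CT23; relative to fibroblast and sclera markers, 6 of the 10 had a higher mean at CT23, or 5 of the 10 without CT1 replicate 3. The median log2 fold (CT23 minus CT1, on the log2(CPM + 1) scale) was -0.45 for the members and 0.014 for all genes tested. In 6 members (Eln, Fbln5, Loxl1, Emilin2, Ecm2 and Timp3) the 3 CT23 libraries all lay below the 3 CT1 libraries, as they did in 11.3% of all genes tested. At an adjusted p of 0.05 by limma no member passed, and neither did any other gene (0 of 11342, or 0%); the smallest limma adjusted p was 0.0736. At an unadjusted limma p under 0.05 there were 2469 genes. Among them were 6 members lower at CT23 (Eln, Fbln5, Efemp1, Emilin2, Ecm2 and Timp3) and 0 members higher, where 9.39% of all genes tested were lower and 12.4% higher. The members were chosen with earlier results of these data known, so their counts beside such shares describe the group and do not test it. On recovered reads, 0 genes passed the adjusted threshold by limma-voom (2492 at an unadjusted p under 0.05) or by the quasi-likelihood test of edgeR (2464). DESeq2 called 138 genes (1343 unadjusted), and Eln was the only member among them, lower at CT23 (adjusted p = 0.0282), as were 1.05% of the 5405 genes to which DESeq2 gave an adjusted p. It gave none to Lox, Emilin2 and Ecm2. Without CT1 replicate 3 the log2 folds were -0.90 for Ecm2, -0.67 for Emilin2, -0.58 for Efemp1, -0.53 for Eln, -0.30 for Fbln5 and -0.23 for Timp3. In that fit 3 members were lower and Htra1 higher at an unadjusted limma p under 0.05. The share over all genes was not counted there, so these counts have no background beside them. Without both CT23 libraries richest in crystallin the log2 folds ran from -0.96 for Ecm2 to 0.35 for Htra1. The lone CT23 library left was assumed to vary like the CT1 libraries, so no count is given here.

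**Figure D1:**
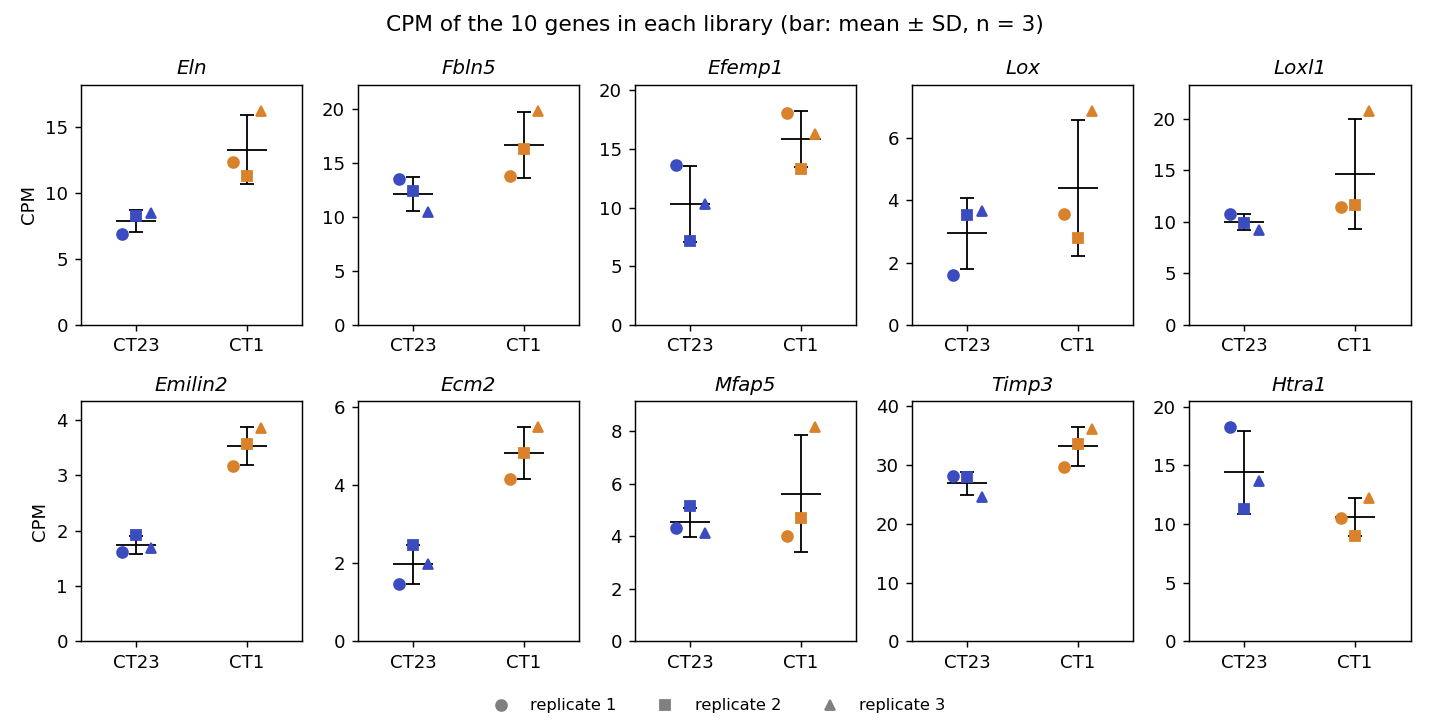
CPM of each of the 10 genes in every library, with CT23 left of CT1 in each panel; points are libraries (shape gives the replicate), the long bar is the mean and the whiskers the SD (n = 3). The groups do not overlap in Eln, Fbln5, Loxl1, Emilin2, Ecm2 and Timp3, where CT23 is lower, and they overlap in the other panels.

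Elastin itself and both fibulins in the group had lower means at CT23, except that relative to fibroblast and sclera markers Fbln5 was higher (ratio 1.08), which rested on CT1 replicate 3 (ratio 0.97 without it). Eln encodes tropoelastin, the monomer of the fibre core (mm10 chromosome 5, 134702593 to 134747323, minus strand). It had 6.89, 8.22 and 8.43 CPM at CT23, against 12.3, 11.3 and 16.2 CPM at CT1. All CT23 libraries were below all CT1 libraries, and CT1 replicate 3 was the highest of the 6. The log2 fold was -0.68 (SE 0.145, limma adjusted p = 0.0754), so the gene did not pass, and CT23 stood at 59.2% of the CT1 mean. Behind these values were 94 to 115 reads per CT23 library and 142 to 219 reads per CT1 library.

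Fbln5 encodes fibulin-5, which binds tropoelastin and tethers it to cells and microfibrils (chromosome 12, 101746565 to 101819055, minus strand). Its levels were 13.6, 12.4 and 10.4 CPM at CT23 and 13.8, 16.3 and 19.8 CPM at CT1. The groups did not overlap, but the highest CT23 library and the lowest CT1 library nearly met. Its log2 fold was -0.42 (SE 0.148, limma adjusted p = 0.163). Efemp1 encodes fibulin-3, a related protein of Bruch's membrane and other matrices (chromosome 11, 28853204 to 28926743, plus strand). It had 13.6, 7.14 and 10.3 CPM at CT23, against 18.1, 13.3 and 16.3 CPM at CT1. CT23 replicate 1 lay just above CT1 replicate 2, so the groups overlapped (log2 fold -0.60, SE 0.209, limma adjusted p = 0.159). Both fibulins thus did not pass, with CT23 means at 72.7% (Fbln5) and 65.1% (Efemp1) of the CT1 means.

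Both cross-linking enzymes had their highest value in CT1 replicate 3. Loxl1 encodes a lysyl oxidase that acts on elastin (chromosome 9, 58287738 to 58313186, minus strand). Its CPM values were 10.8, 9.91 and 9.24 at CT23 and 11.5, 11.7 and 20.8 at CT1. CT1 replicates 1 and 2 were close to the CT23 libraries, and CT1 replicate 3 was far above them. The log2 fold of -0.46 (SE 0.208, limma adjusted p = 0.241) came to -0.20 without that library. Lox, the founding lysyl oxidase, which cross-links collagen as well as elastin (chromosome 18, 52516067 to 52529867, minus strand), showed 1.61, 3.53 and 3.67 CPM at CT23. At CT1 it had 3.55, 2.78 and 6.89 CPM. These groups overlapped widely, with 22 to 50 reads per CT23 library and 35 to 93 reads per CT1 library. The log2 fold of Lox was -0.43 (SE 0.313, limma adjusted p = 0.451), and it came to -0.12 without CT1 replicate 3 and -0.16 without CT23 replicate 1.

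The largest differences by log2 fold among the members were in Ecm2 and Emilin2. Ecm2 encodes a matrix protein with leucine-rich repeats (chromosome 13, 49504810 to 49532789, plus strand). It had 1.47, 2.46 and 1.98 CPM at CT23, against 4.15, 4.84 and 5.48 CPM at CT1. Every CT1 library was well above every CT23 library, and the CT23 mean was 40.8% of the CT1 mean. Its log2 fold was -0.98 (SE 0.160, limma adjusted p = 0.0736). Emilin2 encodes an elastin microfibril interface protein, a glycoprotein of the EMILIN family (chromosome 17, 71252172 to 71311978, minus strand). Its levels were 1.61, 1.92 and 1.69 CPM at CT23 and 3.17, 3.57 and 3.85 CPM at CT1. The spread within each time was small beside the gap between them (log2 fold -0.72, SE 0.121, limma adjusted p = 0.0736), and CT23 stood at 49.3% of the CT1 mean. Both genes were low, with 20 to 32 reads (Ecm2) and 22 to 25 reads (Emilin2) per CT23 library, against 55 to 74 reads (Ecm2) and 42 to 52 reads (Emilin2) per CT1 library.

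Mfap5, which encodes a small glycoprotein bound to fibrillin microfibrils (chromosome 6, 122505845 to 122529290, plus strand), differed from these. It had 4.32, 5.15 and 4.11 CPM at CT23, against 4.0, 4.68 and 8.15 CPM at CT1. CT1 replicates 1 and 2 lay within or below the CT23 range, and CT1 replicate 3 alone was higher. The log2 fold of -0.21 (SE 0.218, limma adjusted p = 0.596) was 0.047, on the other side of 0, without that library.

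Ecm2 lies, on the opposite strand, inside the annotated span of Cenpp, together with Aspn and Ogn, which encode asporin and osteoglycin, proteoglycans with leucine-rich repeats. Aspn was at 4.25, 4.38 and 2.35 CPM at CT23 and 3.25, 6.26 and 5.33 CPM at CT1 (log2 fold -0.35, limma adjusted p = 0.441). Ogn had 19.5, 15.3 and 14.2 CPM at CT23, against 15.3, 16.5 and 22.3 CPM at CT1 (log2 fold -0.13, limma adjusted p = 0.685). Both neighbours overlapped between the times, unlike Ecm2; the difference between the genes was not tested. Cenpp was not analysed here.

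Among regulators of matrix turnover, the inhibitor Timp3 had a lower and the protease Htra1 a higher mean at CT23. Relative to fibroblast and sclera markers Timp3 had a higher mean too (ratio 1.18, or 1.02 without CT1 replicate 3). The same held relative to RPE markers (ratio 1.02, or 1.17 without CT1 replicate 3), and the groups overlapped on both scales. Timp3 encodes a tissue inhibitor of metalloproteinases that binds to the matrix and that the RPE lays down in Bruch's membrane (chromosome 10, 86300372 to 86349506, plus strand). It had 28.1, 28 and 24.6 CPM at CT23, against 29.7, 33.6 and 36.2 CPM at CT1. The CT23 libraries were all lower, but the step was small, with CT23 at 81.1% of the CT1 mean (log2 fold -0.29, SE 0.108, limma adjusted p = 0.177). Timp3 lies inside Syn3 on the opposite strand with overlapping exons, and Syn3 stood at 0.879 to 1.17 CPM in CT23 libraries and 0.666 to 1.74 CPM in CT1 libraries.

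Htra1 encodes a secreted serine protease that cleaves matrix proteins, fibulins among them (chromosome 7, 130936111 to 130985660, plus strand). It was at 18.2, 11.3 and 13.6 CPM at CT23 and 10.5, 8.96 and 12.2 CPM at CT1. CT23 replicate 2 lay below CT1 replicate 3, so the groups overlapped, and CT23 replicate 1 was far the highest. The log2 fold was 0.40 (SE 0.177, limma adjusted p = 0.237), and it was 0.22 without CT23 replicate 1. Htra1 sits inside the annotated span of Fgfr2 on the opposite strand without shared exons; Fgfr2 was at 11.9 to 13.4 CPM in CT23 libraries and 13.6 to 13.9 CPM in CT1 libraries. Annotated antisense genes also touch exons of Eln and Lox, and whether reads were counted by strand is not given.

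**Figure D2:**
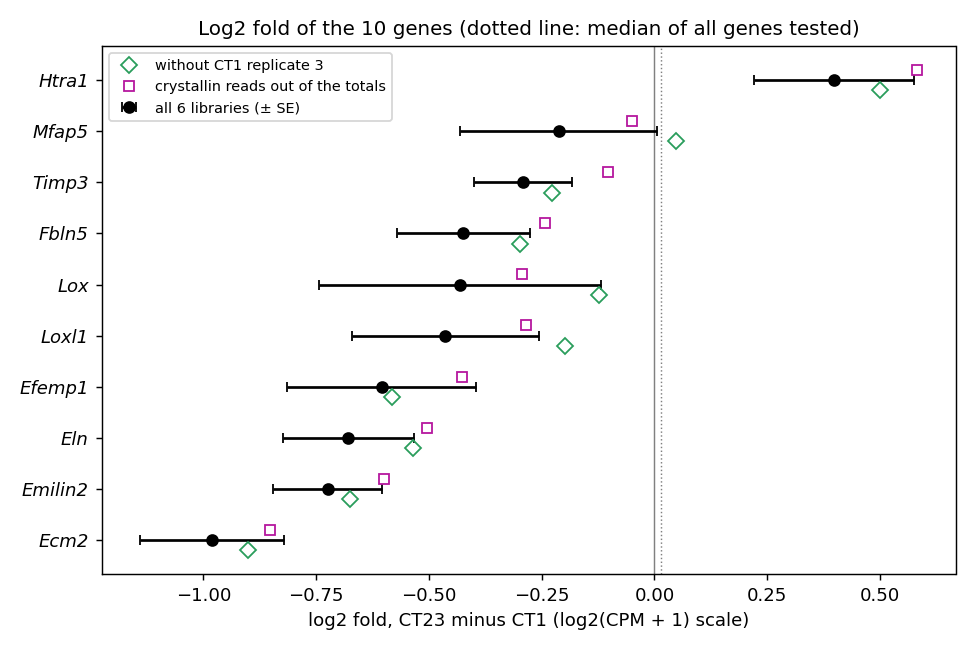
Log2 fold (CT23 minus CT1, log2(CPM + 1) scale) of each gene with its SE from all 6 libraries (black), without CT1 replicate 3 (green diamonds) and with crystallin reads taken out of the library totals (purple squares). Ecm2, Emilin2 and Eln have the lowest folds with crystallin reads out (-0.85, -0.60 and -0.51), Mfap5 crosses 0 without CT1 replicate 3, and Htra1 alone lies on the positive side in each set; relative to fibroblast and sclera markers, 6 of the 10 genes have a higher mean at CT23 (5 without CT1 replicate 3).

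Sequences upstream of these genes were read for short motifs that clock-controlled factors bind. RefSeq windows (GRCm38.p6, 250 bases before to 50 after a transcript start) covered 6 members with 8 windows, since Emilin2 and Fbln5 have 2 starts each. On both strands 6 motifs were searched, and D-boxes are sites of the PAR bZIP clock output factors. The D-box TTATGTAA stood in the Ecm2 window, 170 bases upstream of the start, and is found in 0.938% of 32851 windows of the same length. The core of the cAMP response element, TGACG, present in 20.8% of windows, stood in 4 of the 8: 2 of Fbln5, 1 of Emilin2 (24 bases downstream) and 1 of Htra1 (64 bases upstream). AGGTCA, the ROR core (16.3% of windows), stood in 1 Fbln5 window. The E-box CACGTG (7.15%), the D-box variant TTATGCAA (0.743%) and the full element TGACGTCA (1.79%) were in 0 of the 8; the TGACG core is also part of that full element. A match is a run of letters and not a shown binding site. The windows of Ecm2 and of 1 Emilin2 start, the members furthest apart between the times, and of Htra1, the member on the other side of 0, are shown with matches in capitals (CGTCA is TGACG read on the other strand).
Ecm2, chr13:49504560-49504859, plus strand: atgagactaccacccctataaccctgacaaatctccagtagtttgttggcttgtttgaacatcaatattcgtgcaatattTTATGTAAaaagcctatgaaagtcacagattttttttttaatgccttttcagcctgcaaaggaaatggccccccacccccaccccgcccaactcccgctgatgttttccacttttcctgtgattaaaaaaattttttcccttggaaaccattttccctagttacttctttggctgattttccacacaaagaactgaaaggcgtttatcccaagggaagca
Emilin2, chr17:71310962-71311261, minus strand: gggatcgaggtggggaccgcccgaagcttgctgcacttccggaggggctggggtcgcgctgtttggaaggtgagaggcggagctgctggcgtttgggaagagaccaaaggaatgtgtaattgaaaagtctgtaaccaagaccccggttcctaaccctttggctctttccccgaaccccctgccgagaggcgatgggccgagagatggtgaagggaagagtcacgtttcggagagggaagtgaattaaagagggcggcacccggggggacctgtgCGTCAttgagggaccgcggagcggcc
Htra1, chr7:130935953-130936252, plus strand: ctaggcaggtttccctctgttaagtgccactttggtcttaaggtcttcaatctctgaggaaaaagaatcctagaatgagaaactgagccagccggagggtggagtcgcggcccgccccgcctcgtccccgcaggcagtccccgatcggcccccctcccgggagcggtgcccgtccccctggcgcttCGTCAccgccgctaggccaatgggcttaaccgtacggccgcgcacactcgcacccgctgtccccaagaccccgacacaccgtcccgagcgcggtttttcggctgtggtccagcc
The Ecm2 window had a GC content of 41.0% and 4 CpG dinucleotides. The Htra1 window had 65.0% GC and 28 CpG. The Emilin2 window shown, the one with a match, had 61.0% GC and 21 CpG, and the window of the other Emilin2 start had 48.3% GC and 7 CpG. The median over all windows was 52.7% GC.

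Other genes of the pathway were taken from lists by role, and 0 of them passed limma's adjusted test. Of 13 further elastic fibre and microfibril genes tested, 10 were lower and 3 higher at CT23 (median log2 fold -0.20), with 4 lower and 0 higher at an unadjusted limma p under 0.05. Fbln2, which encodes fibulin-2, had 4.18, 3.38 and 4.11 CPM at CT23, against 7.10, 5.71 and 7.55 CPM at CT1 (log2 fold -0.67, limma adjusted p = 0.0736). Fbn1, the fibrillin gene of the microfibril backbone, was at 18.8, 15.3 and 16.4 CPM at CT23 and at 23.6, 22 and 28.5 CPM at CT1 (log2 fold -0.53, limma adjusted p = 0.0853). In both genes all CT23 libraries were below all CT1 libraries. Fbn2, a fibrillin of developing tissue, and Ltbp4, a latent TGF-beta binding protein needed for elastin assembly, had log2 folds of -0.44 and -0.35 and were also separated. Of the 13 genes, 4 were thus separated and lower at CT23, as were 11.3% of all genes tested. Ltbp1, of the same list, was separated the other way, with all CT23 libraries above all CT1 libraries (log2 fold 0.12).

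Around the lysyl oxidases, 4 of 4 genes tested were lower at CT23 (median log2 fold -0.27). Among them 1 was lower at an unadjusted limma p under 0.05, as were 9.39% of all genes tested. That gene, Pcolce, encodes an enhancer of procollagen processing and had 11.7, 14.3 and 14.2 CPM at CT23, against 18.3, 17.4 and 22.7 CPM at CT1 (log2 fold -0.50, limma adjusted p = 0.101). Pcolce2, Loxl2 and Bmp1, a procollagen protease, had log2 folds of -0.41, -0.12 and -0.057, with overlapping groups.

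The matrix proteases and their inhibitors held 9 lower and 2 higher genes of 11 tested (median log2 fold -0.24). Among them 3 were lower at an unadjusted limma p under 0.05, as were 9.39% of all genes tested. Mmp14, a membrane-bound metalloproteinase, was at 30.8, 31.1 and 31.7 CPM at CT23 and 40.2, 38.1 and 50.7 CPM at CT1 (log2 fold -0.44, limma adjusted p = 0.109). Its substrate Mmp2 had 9.08, 9.68 and 8.29 CPM at CT23, against 11.3, 12.7 and 18.1 CPM at CT1 (log2 fold -0.56, limma adjusted p = 0.121). Timp2, an inhibitor that also takes part in Mmp2 activation, had a log2 fold of -0.34, and Adamts17 one of -0.53 with overlapping groups. These named genes had the smallest p on the list and all had lower means at CT23, Timp2 being the only Timp gene tested there. The 2 higher genes were Htra3 (log2 fold 0.22) and Adamts1 (0.13), both with overlapping groups.

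Of 7 genes tested for other parts of Bruch's membrane and RPE matrix, 6 were lower and 1 higher at CT23 (median log2 fold -0.14), with 3 lower and 1 higher at an unadjusted limma p under 0.05. Nid1, a linker of basement membranes, was the higher one, at 36.6, 29.1 and 24.6 CPM at CT23 and 17.4, 21.6 and 19.9 CPM at CT1 (log2 fold 0.58, limma adjusted p = 0.103). The short-chain collagen genes Col8a1 and Col8a2 had log2 folds of -0.34 and -0.41, and Col15a1 had one of -0.68. Small leucine-rich proteoglycans, proteins with repeats like those of Ecm2, were lower at CT23 in 7 of 7 genes tested (median log2 fold -0.52). Among them 1 was lower at an unadjusted limma p under 0.05, as were 9.39% of all genes tested. That gene was Bgn, encoding biglycan, with 13.1, 17.7 and 17.1 CPM at CT23, against 23.3, 21.6 and 42.3 CPM at CT1 (log2 fold -0.77, limma adjusted p = 0.133). Of these 7 genes, 5 (Aspn, Dcn, Fmod, Lum and Ogn) are also among the 10 fibroblast and sclera markers, so those 2 lists are not separate measures. Dcn, Prelp and Fmod had log2 folds of -0.56, -0.52 and -0.61, and CT1 replicate 3 was the highest library in all of them.

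**Figure D3:**
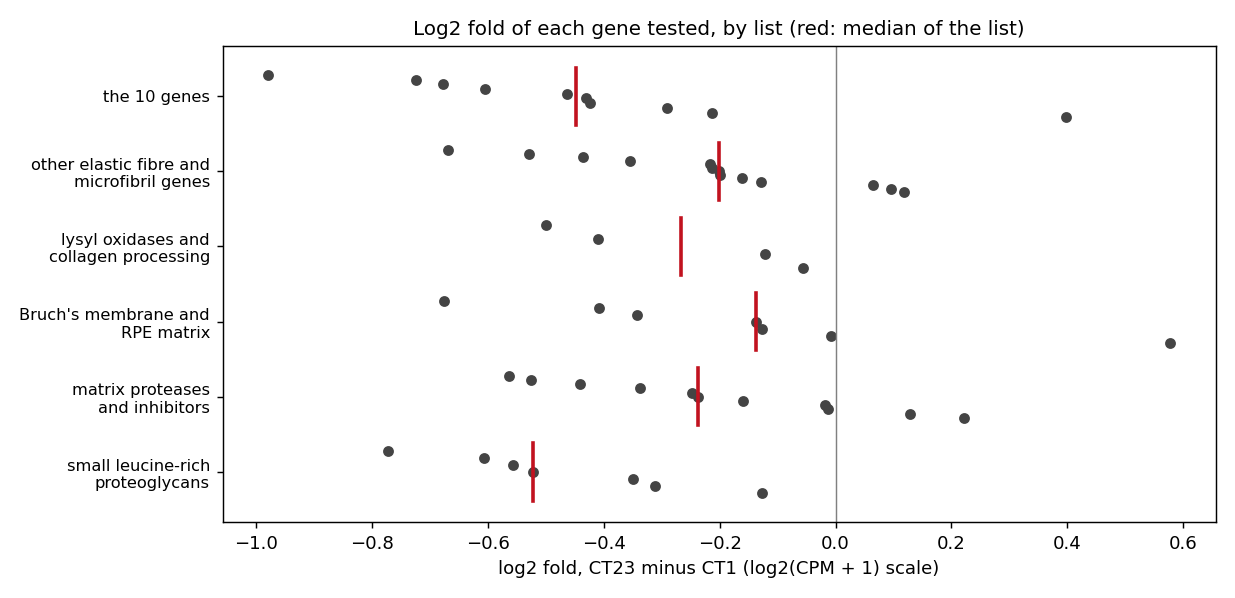
Log2 fold (CT23 minus CT1, log2(CPM + 1) scale) of each tested gene in the 10-gene group and in the pathway lists; each point is a gene and the red bar the list's median. All 6 medians lie below 0, from -0.14 for Bruch's membrane and RPE matrix to -0.52 for small leucine-rich proteoglycans, and Nid1 (0.58) and Htra1 (0.40) lie well above 0.

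Sums of fibroblast and sclera, melanocyte, endothelial and skeletal muscle markers were lower in every CT23 library than in any CT1 library, while rod, lens and Müller glia markers were higher. Fibroblast and sclera markers (10 of 10 tested, 9 lower at CT23, none at 0 in any library) summed to 765 to 916 CPM in CT23 libraries and 999 to 1873 CPM in CT1 libraries, highest in CT1 replicate 3. The 10 members summed to 100.1, 90.0 and 88.0 CPM at CT23, against 111, 111 and 146 CPM at CT1, and 8 of the 10 had their highest value in CT1 replicate 3. RPE markers (9 tested, 8 lower at CT23, none at 0) summed to 730 to 990 CPM in CT23 libraries and 947 to 1342 CPM in CT1 libraries, so the markers of the labelled cell type were present in every library and their sums overlapped between the times. Smooth muscle and pericyte markers (6 tested, 5 lower, none at 0) had overlapping sums of 149 to 187 CPM in CT23 libraries and 163 to 216 CPM in CT1 libraries. Rod markers were higher at CT23 in 10 of 10, with sums of 956 to 1153 CPM in CT23 libraries and 651 to 706 CPM in CT1 libraries. Lens markers, which hold crystallins, summed to 12288 to 107145 CPM in CT23 libraries and 817 to 8718 CPM in CT1 libraries. Skeletal muscle markers (8 of 8 tested lower at CT23) summed to 8.65 to 36.0 CPM in CT23 libraries and 38.7 to 159 CPM in CT1 libraries. Melanocyte markers (7 tested, 6 lower) summed to 1790 to 2081 CPM in CT23 libraries and 2371 to 2627 CPM in CT1 libraries. Most of that sum was Dct, at 1427 to 1666 CPM in CT23 libraries and 1955 to 2215 CPM in CT1 libraries. Dct, Tyrp1 and Ednrb were separated and lower, while Pmel, Mitf, Kit (log2 fold -0.15) and Sox10 (0.043) overlapped. The sum thus does not speak for the whole list. The RPE is a pigmented layer too, so pigment genes such as Dct and Tyrp1 cannot tell melanocytes from RPE here. Endothelial markers (8 tested, 6 lower) summed to 31.8 to 36.7 CPM in CT23 libraries and 36.9 to 47.4 CPM in CT1 libraries. Macrophage markers (7 tested, 6 lower) overlapped, at 42.7 to 55.5 CPM in CT23 libraries and 54.2 to 79.0 CPM in CT1 libraries. Surface epithelium markers (8 tested, 7 lower) overlapped too, at 628 to 1341 CPM in CT23 libraries and 1075 to 1753 CPM in CT1 libraries. Müller glia markers (6 tested, 5 higher) summed to 577 to 667 CPM in CT23 libraries and 501 to 550 CPM in CT1 libraries. Rlbp1, the lower marker there (log2 fold -0.25), is also on the RPE list, so those lists are not fully separate. In no library was a listed marker of any of these lists at 0. The part of these layers in the members' differences was not tested.

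**Figure D4:**
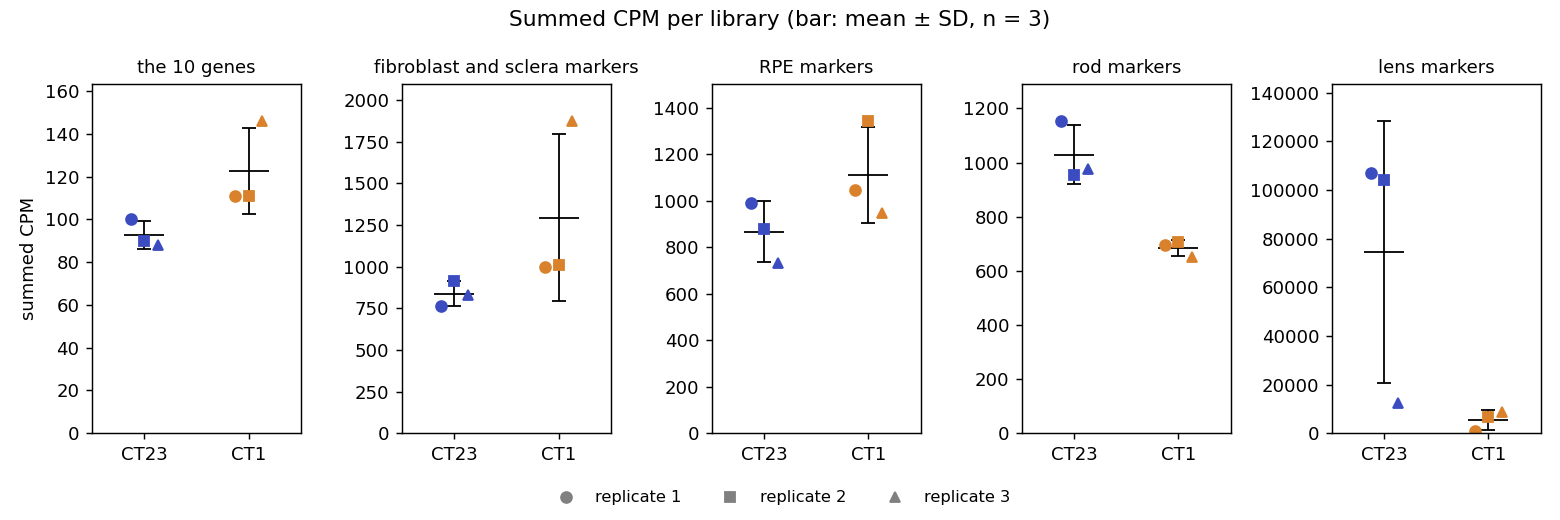
Summed CPM per library of the 10 genes and of the fibroblast and sclera, RPE, rod and lens markers, with CT23 left of CT1; points are libraries, the long bar the mean and the whiskers the SD (n = 3). CT1 replicate 3 is the highest library for the 10 genes (146 CPM) and for the fibroblast and sclera markers (1873 CPM), while rod and lens markers are higher in the CT23 libraries.

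The fibroblast and sclera sum was mostly Dcn, Col1a2 and Col1a1, at 732, 579 and 318 of 1873 CPM in CT1 replicate 3. In CT23 replicate 1 they were at 306, 228 and 103 of 765 CPM. Of the 10 markers 5 were separated and lower at CT23, while Lum, Pdgfra (log2 fold 0.010), Fmod, Ogn and Aspn overlapped. Scaling to this sum thus rests mainly on a few genes of the list. Scaled to the fibroblast and sclera markers, a measure added after seeing the data, the picture differed between members. Only 4 members (Eln, Efemp1, Emilin2 and Ecm2) then had a lower mean at CT23, and the other 6 had a higher one. Ecm2 was the only member with all CT23 libraries below all CT1 libraries (0.176% of all genes tested were so on this scale), at 1.91, 2.68 and 2.39 per 1000 CPM of those markers at CT23, against 4.16, 4.80 and 2.93 at CT1. Emilin2 was at 2.11, 2.1 and 2.04 on that scale at CT23 and 3.18, 3.54 and 2.06 at CT1, so that CT1 replicate 3 lay within the CT23 range. Eln had 9.0, 8.97 and 10.2 at CT23, against 12.3, 11.2 and 8.66 at CT1, and the groups overlapped. Loxl1 was nearly level across both times, at 14.1, 10.8 and 11.2 at CT23 and 11.5, 11.6 and 11.1 at CT1. Htra1, at 23.8, 12.3 and 16.5 at CT23 against 10.5, 8.89 and 6.52 at CT1, and Mfap5 had all CT23 libraries above all CT1 libraries, as had 46.8% of all genes tested. The marker sum of CT1 replicate 3 weighed on these values. Without that library 5 members had a lower mean at CT23, Fbln5 now among them, and 3 (Eln, Emilin2 and Ecm2) were separated and lower. Scaled to the RPE markers, 8 members had a lower mean at CT23, and 2 (Emilin2 and Ecm2) were separated and lower, as were 0.591% of all genes tested. Without CT1 replicate 3, 4 members had a lower mean on the RPE scale, and the same 2 were separated and lower, while 3 (Fbln5, Mfap5 and Htra1) were separated and higher. On neither marker scale was the share over all genes counted without that library. Groups of 3 and 2 libraries also separate more easily than groups of 3 and 3, so these counts only describe the members.

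**Figure D5:**
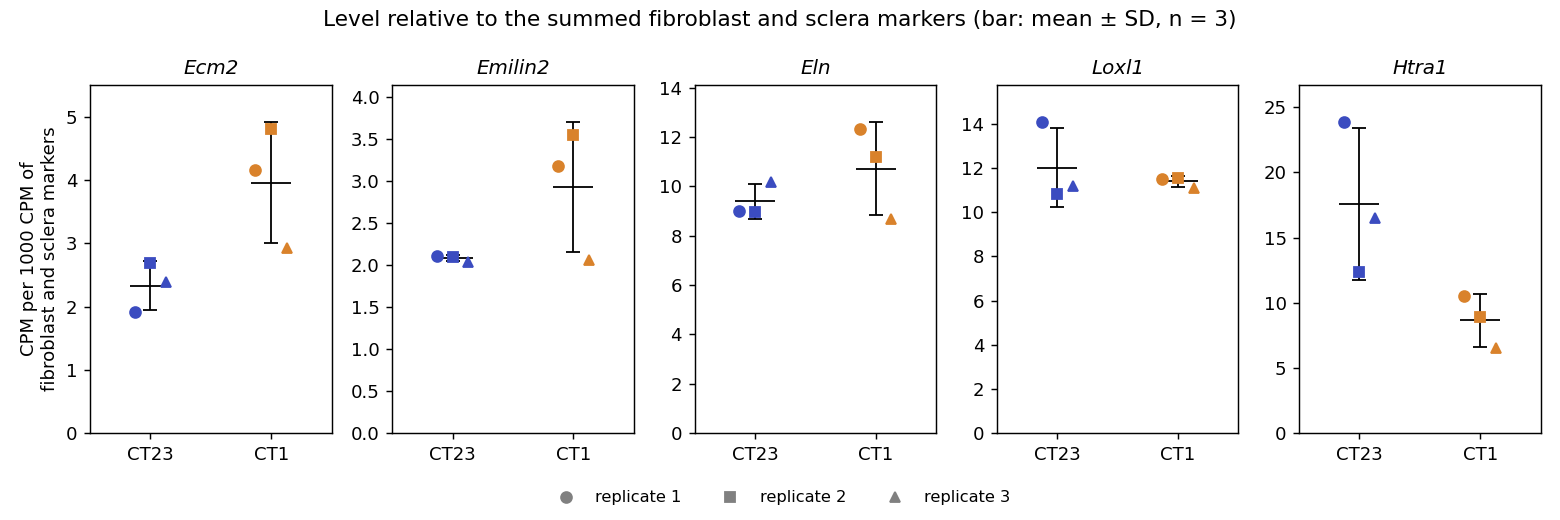
CPM of 5 of the genes per 1000 CPM of summed fibroblast and sclera markers in the same library, with CT23 left of CT1; points are libraries, the long bar the mean and the whiskers the SD (n = 3). Ecm2 is lower and Htra1 higher in every CT23 library, and Emilin2, Eln and Loxl1 overlap between the times.

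With crystallin reads taken out of the library totals, the median log2 fold of all genes tested was 0.17, a shift of 0.16. That step multiplies all genes of a library by the same factor, so it leaves the order of genes within a library as it was. The folds of Fbln5 (-0.24), Efemp1 (-0.43) and Timp3 (-0.10) then had an unadjusted limma p above 0.05. With such a p under 0.05 were 3 members lower (Eln, Emilin2 and Ecm2), against 2.85% of all genes tested, and 1 higher (Htra1, 0.58), against 20.8%. Under that scaling Ecm2 passed limma's adjusted test (log2 fold -0.85, adjusted p = 0.0365; 360 genes passed in all, 7 lower, or 0.0617% of all genes tested, and 353 higher at CT23), and 3 members (Eln, Emilin2 and Ecm2) kept their CT23 libraries below all CT1 libraries, as did 3.36% of all genes tested. Over the alternatives run, the adjusted p of Ecm2 ranged from 0.0365 to 0.588 and that of Eln from 0.0282 to 0.588.

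In the authors' deposited table, where the fold runs as CT1 over CT23, p-values under 0.05 stood beside Efemp1 (0.010), Emilin2 (0.0109) and Ecm2 (0.0134). For the other 7 members the p-values in the authors' deposited table were between 0.0584 (Eln) and 0.540 (Mfap5), and neither how these were computed nor whether they were adjusted is given there.

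The genes most like Eln over the 6 libraries were picked by Pearson's r of log2(CPM + 1) among 4722 other genes averaging 5 CPM or more. They were Taldo1, Znfx1, 2810474O19Rik, Pcolce and Dag1, with r between 0.995 and 0.997. Without the 2 libraries furthest from the Eln median (CT23 replicate 1 and CT1 replicate 3), r was 0.981 to 0.999. For Timp3 the nearest were Kdm4a, Ppp4r1l-ps, Cox4i1, Cox7a2 and Tpm1, with r between 0.986 and 0.997. Pcolce, given above among the collagen-processing genes, was the only one of these 10 that belonged to the lists. The points share library and depth, and with so many genes and 6 libraries such values describe the order of the libraries only.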

How the data were processed

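Per the file headers, the authors deposited library CPM (reads scaled by the library total), with a p-value and a log2 fold for every gene. The submitters' processing notes name mm10, Bowtie2 2.1.0, HTSeq and edgeR 3.24.1, without roles; which genes were filtered and whether strand was used is not given in the sources here. The deposited log2 fold equalled log2 of mean CPM at CT1 over mean CPM at CT23 in 14083 of 14083 entries, within 1e-06. The 75 entries with no gene name, 0.0432% to 0.102% of the listed reads, were left out. Reads were recovered from the CPM steps, since 100% of values lay within 0.01 of a whole read.

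The main fit was limma 3.58.1 (R 4.3.3) with its trend option on log2(CPM + 1), for 11342 genes averaging 1 CPM or more, with the 2 times as groups and Benjamini-Hochberg adjustment at 0.05, two-sided. Count tests ran as alternatives with edgeR 4.0.16, DESeq2 1.42.0 and limma-voom. Other alternatives were pseudocounts, filters, TMM factors, crystallin reads taken out of the totals, the replicate number as a block, and left-out libraries. Scaling to marker sums was added after seeing the data. The scripts were tested on simulated data. All 10 members were named, with up to 4 genes of smallest p per pathway list and the 5 genes most like Eln and Timp3; other names were chosen after their values were seen. Members and lists were chosen with earlier results of these data known.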

Additional observations from a re-analysis of the deposited data

How the results depend on the processing

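The count of genes past limma's adjusted p of 0.05, which was 0 with all 6 libraries, stayed at 0 with other pseudocounts, with no filter, with TMM factors, by edgeR's quasi-likelihood test and by limma-voom. It was 98 where genes had to average 5 CPM (15 lower and 83 higher at CT23), 138 by DESeq2 (57 lower and 81 higher) and 360 with crystallin reads out of the totals (7 lower and 353 higher). With each library left out it ranged from 0 to 4, the 4 being without CT23 replicate 3. The count of members past an unadjusted p of 0.05, 6 lower and 0 higher at CT23, was 4 to 7 in total under the alternatives that gave it. With crystallin reads out of the totals or without CT1 replicate 3 it was 3 lower and 1 higher. The marker scalings gave no such count. With libraries left out, other pseudocounts or filters, TMM factors or the replicate block, the share over all genes at that p was not counted. Emilin2, Ecm2 and Lox were not tested at 5 CPM. The count of separated members that were lower at CT23, 6 of 10, was 3 with crystallin reads out of the totals, 1 relative to fibroblast and sclera markers (3 without CT1 replicate 3) and 2 relative to RPE markers (2 without CT1 replicate 3). With a library left out and no such scaling it was 6 or 7, a count that could not fall. Separated groups stay separated when a library is removed, so this does not test how stable the count is. The share over all genes separated in this way was not counted there. The log2 fold of Mfap5 ranged from -0.39 to 0.047 with a library left out and was reversed without CT1 replicate 3 (0.047). Single-gene folds came from 17 alternatives, which leave out the marker scalings. Of these 167 folds, 161 kept direction and side of the threshold and 1 was reversed. Another 3 kept direction but had no adjusted p (Lox, Emilin2 and Ecm2 by DESeq2), and 2 (Eln by DESeq2, Ecm2 with crystallin reads out) passed. Relative to fibroblast and sclera markers 6 of the 10 members, Htra1 among them, had a higher mean at CT23 (5 without CT1 replicate 3). Relative to RPE markers 2 had a higher mean (6 without CT1 replicate 3). The causes were not tested. Deviations of same-numbered libraries from their group means had r of -0.25, 0.38 and -0.042, and unlike-numbered pairs had r between -0.70 and 0.77. With unlike numbers reaching such values, these correlations cannot decide whether the numbers pair the samples. With the replicate block 0 genes passed. In that fit 7 members had an unadjusted limma p under 0.05, 6 lower and 1 higher at CT23. That count has no share over all genes beside it, so it only describes the members. Low reads limit Lox, Emilin2 and Ecm2.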
